A study of Mus musculus with 9 samples.

Results

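A set of 194 genes stood lower in spermatids labelled Wip1-/- than in wild type spermatids, and stood near the wild type level on the arrays labelled Wip1-/- Atm+/-. They were chosen on the authors' processed intensities, taken as log2 and averaged per genotype. A probe qualified with exactly 1 gene symbol, a wild type mean of at least 200 (7.64 on the log2 scale), a Wip1-/- mean at least 0.6 below wild type on the log2 scale, and a mean within 0.3 of wild type on the arrays labelled Wip1-/- Atm+/-. All 3 Wip1-/- arrays also had to lie below the 6 others, and the brightest such probe stood for its gene. Of 19057 genes with a probe of 1 symbol, 7247 reached the wild type level, 285 of those were lower by 0.6, 243 had the Wip1-/- arrays below the 6 others, and 194 also met the limit on the arrays labelled Wip1-/- Atm+/-. Because these values picked the genes, every level of a member given here is a description, and no test is attached to it.

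The study measured total RNA of mouse spermatids, the postmeiotic germ cells that become sperm, on Illumina Mouse WG-6 v2.0 bead arrays. There were 3 arrays of Wip1-/- cells, which lack the phosphatase encoded by Ppm1d on both alleles, 3 arrays labelled Wip1-/- Atm+/-, for the same loss with 1 allele of the kinase gene Atm also lost, and 3 arrays of wild type (Wip1+/+) cells. Strain, age and number of animals are not stated in the labels. The design text speaks of hybridization in triplicate and leaves unsaid whether each array had its own animal. The p-values below therefore measure only the spread between arrays, which may be technical.

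Wip1 removes phosphate groups placed by ATM and related kinases and so dampens signalling after DNA damage. Spermatids stop transcribing as histones are exchanged for transition proteins and then protamines, and much of what the later cell needs is made beforehand as stored messenger RNA. In mammals the X and Y chromosomes are silenced during meiosis, and part of the X-linked and Y-linked genes, many of them in multi-copy families, are transcribed again in round spermatids.

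On the arrays themselves, Ppm1d was read best by probe ILMN_3133522, at 543.5, 621.2 and 532.6 on the Wip1-/- arrays, 905.8, 838.6 and 868.5 on the arrays labelled Wip1-/- Atm+/-, and 726.8, 873.9 and 870.5 on the wild type arrays. Its log2 difference of -0.54 between Wip1-/- and wild type was short of the limit for membership, and the arrays labelled Wip1-/- Atm+/- do not show the loss that their label gives, so they are named by their label throughout. A dimmer Ppm1d probe, ILMN_1226504, ran the other way (0.72), and whether either probe lies inside the deleted stretch was not tested. Atm read by ILMN_2492491 stood at 172.9, 180.1 and 183.5 on the arrays labelled Wip1-/- Atm+/-, against 235.2, 262.2 and 241.3 on the wild type arrays. On the Wip1-/- arrays this probe was higher, at 365.6, 372.9 and 361.6. Probe ILMN_1258206 was above wild type in both, by 0.39 in Wip1-/- and 0.66 on the arrays labelled Wip1-/- Atm+/-. Spermatid transcripts (Prm1, Tnp1, Acrv1, Odf1) were bright on all 9 arrays, with Prm1 between 35074 and 44386. The meiotic gene Sycp3 was detected on 0 arrays, whereas other meiotic genes, among them Sycp1, Sycp2, Spo11 and Stag3, were detected on all 9.

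Over the 194 members the Wip1-/- mean ran from 42.3% to 65.8% of the wild type mean, with a median of 60.8%. On the log2 scale the difference from wild type ran from -1.24 to -0.60 (median -0.72), against a median of 0.02 over the 7247 genes at the level. On the arrays labelled Wip1-/- Atm+/- the difference ran from -0.30 to 0.29 (median 0.01), with 103 members above the wild type mean and 91 below it, against a median of -0.05 over the genes at the level. The limits of the rule bound these ranges. On the 3 Wip1-/- arrays the median member stood 0.74, 0.72 and 0.72 below the wild type mean, as the rule favours. These 3 arrays were the lowest of all for 76, 62 and 56 members. The distance between the highest Wip1-/- array and the lowest of the 6 others had a median of 0.44 on the log2 scale and ran from 0.00 for Ube2k to 1.01 for Fscn3 and Npcd. Over all genes at the level, 10.9% had the 3 Wip1-/- arrays below the 6 others. This separation was part of the rule, and nothing is read from it. The Wip1-/- arrays were above the 6 others in 12.6% of genes at the level, and under the same rule turned round 39 genes were high in Wip1-/- only, and with the genotypes exchanged 323 genes were low only on the arrays labelled Wip1-/- Atm+/-.

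**Figure D1:**
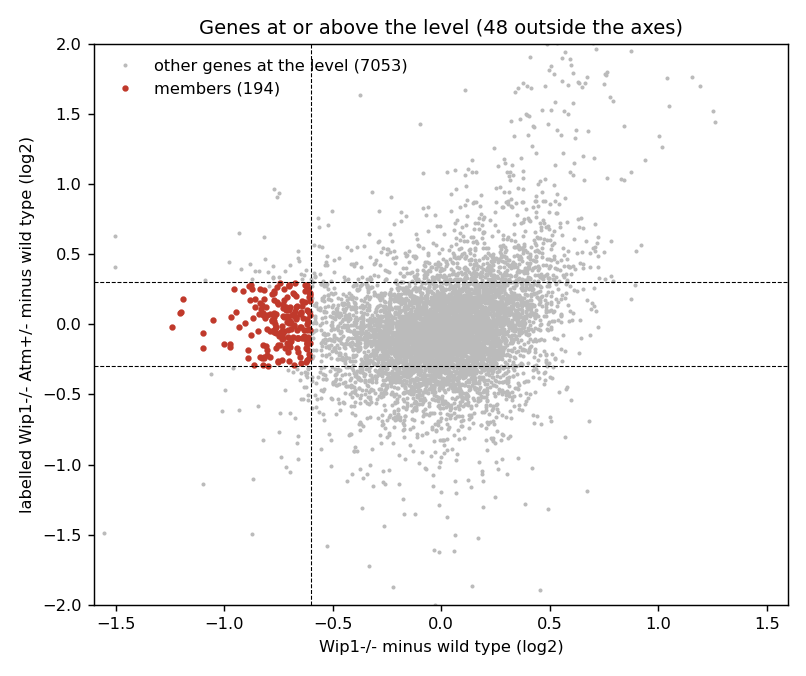
Each point is a gene at or above the wild type level of 200, with the Wip1-/- minus wild type difference across and the labelled Wip1-/- Atm+/- minus wild type difference upwards, both on the log2 scale. The 194 members (red) lie left of -0.6 and between -0.3 and 0.3 by the rule; other genes (grey) are drawn at their brightest probe, and 48 points fall outside the axes.

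**Figure D2:**
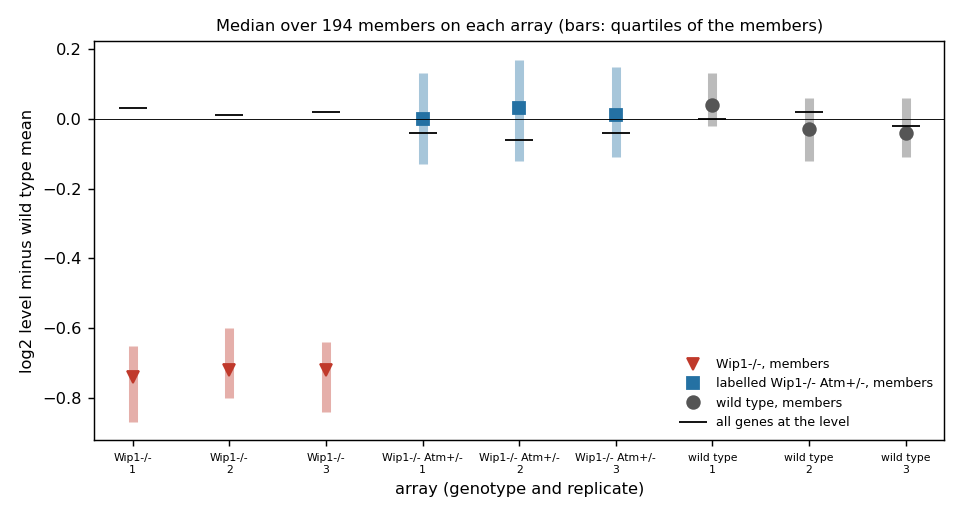
Each array is placed across and the log2 level minus the wild type mean upwards. Symbols give the median over the 194 members with the quartile range as a bar, and black lines give the median over all genes at the level; the Wip1-/- arrays stand at -0.74, -0.72 and -0.72, the arrays labelled Wip1-/- Atm+/- and the wild type arrays between -0.04 and 0.04.

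Members were found over a wide range of levels. The wild type mean intensity ran from 208 to 34767, with a median of 871, against 704 over the genes at the level; 89 members stood at 1000 or more, and 34 at 4000 or more. On the authors' scale background was not removed, which compresses differences of dim probes. After background correction the same contrast had a median of -0.90 and ran from -1.65 to -0.54 over the 191 members with complete scanner values. Near the limits, Lypla1 (-0.6034), Kcna6 (-0.6036) and Slamf7 (-0.604) were just inside on the log2 scale, and Cep295, Dnajb8 (-0.5979) and Wbp2nl (-0.5968) just outside, Cep295 at -0.60 but short of the limit before rounding. For the arrays labelled Wip1-/- Atm+/-, Slc66a2 (-0.2979) and Wdsub1 (0.2947) were inside and Znrd1 (-0.3031) and Dad1 (0.3074) outside. For level, Nccrp1 at 208.0 was inside and Six2 at 199.7 outside.

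For 3 of the members with the largest differences, the 250 bases before the annotated start are shown, so that the promoter letters of genes that stand low together can be compared. They come from RefSeq on GRCm38.p6: Fscn3 (chr6:28427651-28427900, + strand) has the largest difference, Tppp2 (chr14:51918511-51918760, + strand) is the brightest of the 15 with the largest differences, and Lhx1 (chr11:84525535-84525784, - strand) holds matches to a pair of motifs. Capitals mark every match to the 8 motifs searched, TATAAA on the opposite strand followed by GTTGCC on the same strand in Fscn3, and CCAAT on the opposite strand followed by TGACG on the same strand in Lhx1; Tppp2 has no match in these bases.
Fscn3: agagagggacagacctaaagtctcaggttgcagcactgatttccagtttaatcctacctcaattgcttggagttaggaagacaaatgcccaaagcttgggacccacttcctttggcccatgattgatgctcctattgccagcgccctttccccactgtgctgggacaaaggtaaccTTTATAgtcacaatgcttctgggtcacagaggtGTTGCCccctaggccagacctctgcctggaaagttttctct
Tppp2: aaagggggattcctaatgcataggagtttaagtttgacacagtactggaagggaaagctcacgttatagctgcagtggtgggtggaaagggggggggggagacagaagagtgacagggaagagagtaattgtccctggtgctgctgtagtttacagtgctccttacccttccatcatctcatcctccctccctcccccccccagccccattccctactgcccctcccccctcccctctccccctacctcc
Lhx1: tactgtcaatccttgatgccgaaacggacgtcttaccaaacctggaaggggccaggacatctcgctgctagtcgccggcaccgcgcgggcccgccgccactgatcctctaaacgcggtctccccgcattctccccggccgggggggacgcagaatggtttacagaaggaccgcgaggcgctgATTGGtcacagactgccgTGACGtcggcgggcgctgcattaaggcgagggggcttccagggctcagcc
Windows of 250 bases before and 50 after the start were found for 158 members (220 windows) and set beside 7594 windows of genes at the level and 32851 windows of all genes. The letters were searched on both strands. The cAMP response element core TGACG, which CREM-type activators of spermatid genes can bind, was in 25% of member windows and 31.6% of windows at the level; the full palindromic element, which contains it, was in 2.3% and 3.5%. The CCAAT box was in 31.4% and 38.9%, TATAAA in 6.8% and 7.5%, the GC box GGGCGG in 42.7% and 58.3%, and the ETS site CCGGAAG in 8.2% and 18.4%. The MYB site AACNGTT was in 5.0% and 3.9% and the X box core GTTGCC in 15% and 14.5%. Over all gene windows these 8 shares were 20.8%, 1.8%, 37.4%, 13.6%, 35.7%, 8.9%, 4.5% and 12.5%, in the same order. Member windows had a median of 55.2% GC and 10 CpG dinucleotides, against 60.0% and 20 in windows at the level and 52.7% and 7 in all windows, so GC-rich motifs were rarer in member windows than at the level beside a lower GC content. These shares are descriptions of letters, with no test.

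Among cytoskeletal members, Fscn3, a testis fascin that bundles actin filaments, had intensities of 1120, 1317 and 1258 on the Wip1-/- arrays, 3009, 2949 and 2684 on the arrays labelled Wip1-/- Atm+/-, and 2649, 2689 and 3452 on the wild type arrays. Its Wip1-/- mean was 42.3% of wild type (log2 -1.24), the largest difference of the 194, and the values of the other genotypes overlapped. Sh3kbp1, an X-linked adaptor of receptor endocytosis that also binds actin regulators, stood at 1167, 1249 and 1249 in Wip1-/-, 2232, 2385 and 2368 on the arrays labelled Wip1-/- Atm+/-, and 2680, 2678 and 2487 in wild type. A dimmer Sh3kbp1 probe met the rule as well (-1.15), and another pair at the level differed by -0.18 and -0.26. Lasp1, which binds actin through its nebulin repeats, stood at 559.8, 629.0 and 658.9 in Wip1-/-, 1166, 1087 and 995.8 on the arrays labelled Wip1-/- Atm+/-, and 1538, 1068 and 1069 in wild type, but a dimmer Lasp1 probe was 0.26 above wild type. The other 5 of the 8 members grouped here were Afap1 (an actin filament cross-linker), Cfl2 (a cofilin), Sptb (beta spectrin), Tmod4 (a tropomodulin that caps actin pointed ends) and Ctnna3 (an alpha catenin), with differences between -0.89 and -0.61.

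The sperm head, flagellum and microtubule group held 8 members with differences between -1.05 and -0.65. Tppp2, a tubulin polymerization promoting protein found in sperm tails, stood at 5841, 6699 and 6224 in Wip1-/-, 11816, 16897 and 11506 on the arrays labelled Wip1-/- Atm+/-, and 13122, 12369 and 13334 in wild type, and a dimmer Tppp2 probe met the rule too (-0.76). Odf3b, an outer dense fibre family gene, stood at 54.3% of wild type, Actl9, an actin-like protein of the sperm head, at 54.6%, and Efcab1, a calcium-binding protein of motile cilia, at 54.7%. Hook1, which links the manchette of microtubules to the sperm head and is mutated in mice with abnormal head shape, stood at 222.0, 253.5 and 229.9 in Wip1-/-, 321.1, 334.0 and 360.6 on the arrays labelled Wip1-/- Atm+/-, and 503.2, 261.3 and 541.3 in wild type. The highest Wip1-/- array and the lowest wild type array of Hook1 almost touched, since wild type replicate 2 stood far below the other wild type arrays. Of 3 brighter Hook1 probes, that with a wild type mean of 4704 differed from wild type by -0.49 in Wip1-/- and -0.64 on the arrays labelled Wip1-/- Atm+/-, and that at 2299 by -0.36 and -0.35. The third, at 729.3, differed by -0.67 and -0.28. At the brightest 2 of these probes Hook1 thus stood more than 0.3 below wild type in both genotypes. The member's own probe also stood below wild type on the arrays labelled Wip1-/- Atm+/- (-0.29), just inside that limit. Cypt2 and Cypt3, X-linked proteins of the perinuclear theca from a family of similar copies, stood at 57.3% and 63.3% of wild type. Cypt3 was bright, at 9774, 12146 and 10981 in Wip1-/-, 13763, 16763 and 14670 on the arrays labelled Wip1-/- Atm+/-, and 17751, 16947 and 17059 in wild type. Cypt2 stood at 1456, 1683 and 1248 in Wip1-/-, 2359, 2734 and 2349 on the arrays labelled Wip1-/- Atm+/-, and 2209, 2314 and 3177 in wild type. Neither gene had overlapping values between Wip1-/- and the 6 other arrays, as the rule requires. Ift172, an intraflagellar transport protein, completed the group at 63.7%.

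**Figure D3:**
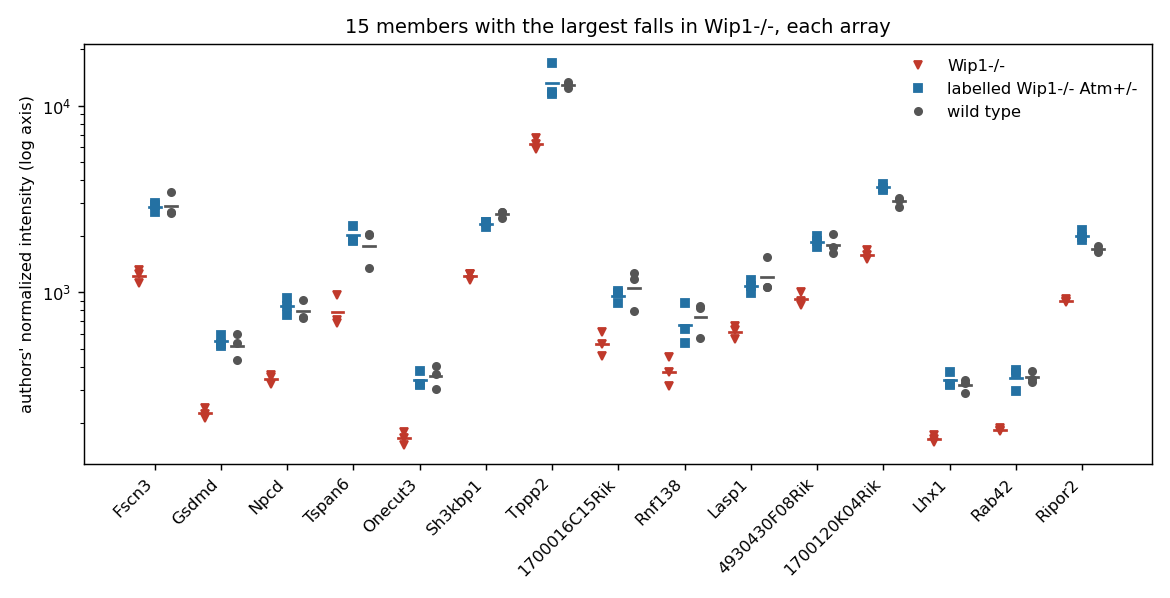
Authors' normalized intensity of each array (log axis) for the 15 members with the largest differences between Wip1-/- and wild type, largest at the left. Triangles are Wip1-/- arrays, squares arrays labelled Wip1-/- Atm+/-, circles wild type arrays, and bars geometric means of 3 arrays; Tppp2 is the brightest, with 5841 to 6699 in Wip1-/- and 12369 to 13334 in wild type.

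Spermatid chromatin proteins gave 6 members with differences between -0.83 and -0.61. H1f7, a linker histone of the spermatid nucleus needed for its condensation, stood at 6114, 6628 and 6290 in Wip1-/-, 9560, 9046 and 9152 on the arrays labelled Wip1-/- Atm+/-, and 10412, 9186 and 10130 in wild type. H2al2a, a short H2A variant that enters chromatin with the transition proteins, stood at 3234, 3151 and 3056 in Wip1-/-, 5750, 6733 and 6320 on the arrays labelled Wip1-/- Atm+/-, and 5085, 5304 and 5816 in wild type. Both were compact within a genotype, and H2al2a was on the high side of wild type on the arrays labelled Wip1-/- Atm+/- (0.21). The X-linked H2al1m and H2al1e and the Y-linked H2al2c, from the same variant families, stood at 60.4%, 65.4% and 56.4% of wild type. H2al1e was among the brightest members, with 22399, 23602 and 22193 in Wip1-/-, 33115, 31790 and 32372 on the arrays labelled Wip1-/- Atm+/-, and 34343, 32372 and 37801 in wild type. These families hold near-identical copies that may share a probe, so which copy is read is uncertain. Hmgb4, a testis HMG box protein, stood at 56.7%.

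Energy and lipid metabolism gave 8 members, between -0.87 and -0.61. Gapdhs, the sperm form of glyceraldehyde-3-phosphate dehydrogenase, stood at 18199, 17699 and 16947 in Wip1-/-, 26863, 28336 and 28150 on the arrays labelled Wip1-/- Atm+/-, and 35074, 28874 and 25045 in wild type. Its other probe, also bright, differed by only -0.16 between Wip1-/- and wild type, so the Gapdhs probes did not give the same size. Gpd2, the mitochondrial glycerol-3-phosphate dehydrogenase, stood at 54.8% of wild type (-0.40 at a brighter probe), and Pfkfb4, which sets the level of an activator of glycolysis, at 57.9%, although another Pfkfb4 probe differed by 0.02. Agpat2 and Agpat1, which make phosphatidic acid, stood at 55.2% and 65.3%, Lipe, the hormone-sensitive lipase, at 58.6%, Lpin1, a phosphatidate phosphatase, at 64.9%, and Pmvk of the mevalonate pathway at 65.2%. For Lpin1, brighter probes differed by -0.06 and 0.18. A brighter Agpat2 probe was low in both genotypes, at -0.69 in Wip1-/- and -0.31 on the arrays labelled Wip1-/- Atm+/-. Azin2, an antizyme inhibitor that favours polyamine synthesis, stood at 56.6%.

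Ubiquitin and autophagy genes gave 11 members, between -0.97 and -0.68. Rnf138, an E3 ubiquitin ligase, stood at 314.2, 447.5 and 374.0 in Wip1-/-, 537.6, 871.6 and 637.4 on the arrays labelled Wip1-/- Atm+/-, and 826.7, 571.8 and 843.4 in wild type. Its brighter probes at the level, with wild type means of 8963 and 10393, differed by -0.23 and -0.47, so the size depended on the probe. The X-linked retrogene Rnf138rt1 stood at 61.2%, and transcripts of the parent and the retrogene may share a probe. Ubl4a, an X-linked ubiquitin-like protein of tail-anchored protein delivery, stood at 399.2, 388.1 and 359.0 in Wip1-/-, 764.5, 731.5 and 688.9 on the arrays labelled Wip1-/- Atm+/-, and 687.1, 736.1 and 588.5 in wild type. Its autosomal retrogene Ubl4b stood at 2882, 3014 and 2746 in Wip1-/-, 4668, 4291 and 4822 on the arrays labelled Wip1-/- Atm+/-, and 4649, 4619 and 4533 in wild type. Parent and retrogene were both members, so their low level in Wip1-/- only was set by the rule. Whether their transcripts share a probe was not tested. Nbr1, a receptor for selective autophagy, stood at 55.1% of wild type, Dda1, a partner of CUL4 ubiquitin ligases, at 55.0%, Ube2g2 and Ube2k, ubiquitin-conjugating enzymes, at 58.2% and 59.6%, and Trim54, Asb17 and Herpud2 at 60.4% to 61.9%. Dimmer Dda1 probes differed by 0.11 and -0.70, and brighter Ube2k probes by -0.17 and -0.43.

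Kinases, phosphatases and their partners were the largest group, with 13 members between -0.85 and -0.60. Prkar2a, a regulatory subunit of protein kinase A, stood at 268.6, 236.3 and 270.1 in Wip1-/-, 409.8, 444.3 and 500.6 on the arrays labelled Wip1-/- Atm+/-, and 404.2, 448.6 and 406.0 in wild type. Other proteins of this kinase were also members: Akap1, which anchors it to mitochondria, at 56.6% of wild type, and Pkib, which inhibits it, at 63.2%. The 3 brighter Akap1 probes, with wild type means of 21867, 5611 and 1039, differed by -0.43, -0.45 and -0.12. A slightly brighter Pkib probe differed by -0.51, and dimmer ones by 0.07 and -0.42. The kinases Pim1 (55.6%), Lats2 (59.7%), Dyrk1b (61.2%), Mapk6 (61.5%), Hipk2 (63.1%) and Araf (65.1%) were members, with Ppp2r2b, a subunit of protein phosphatase 2A (61.1%), the phosphatase Ptp4a3 (65.6%) and the phosphoinositide phosphatases Synj2 (61.0%) and Inpp4a (65.8%). For Dyrk1b the brightest probe, at a wild type mean of 13087, differed by 0.02 and a dimmer one by -0.59, and for Mapk6 both brighter probes were 0.25 and 0.24 above wild type. Small GTPase regulators gave 7 members, among them Rab42, a Rab GTPase, at 187.7, 181.3 and 183.1 in Wip1-/-, 367.6, 295.0 and 382.8 on the arrays labelled Wip1-/- Atm+/-, and 380.0, 331.4 and 344.4 in wild type. Ripor2, an inhibitor of RhoA, stood at 888.9, 918.5 and 896.6 in Wip1-/-, 1909, 2148 and 1974 on the arrays labelled Wip1-/- Atm+/-, and 1682, 1775 and 1643 in wild type. The labelled Wip1-/- Atm+/- arrays of Ripor2 all stood above the wild type arrays, whereas those of Rab42 overlapped them.

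Transcription and RNA regulators gave 10 members, between -1.10 and -0.61. Onecut3, a cut-homeobox factor, stood at 165.1, 179.4 and 152.8 in Wip1-/-, 379.1, 319.6 and 323.0 on the arrays labelled Wip1-/- Atm+/-, and 403.7, 364.5 and 301.8 in wild type, and another of its probes met the rule, with means of 161.2 in Wip1-/- and 322.4 in wild type. Lhx1, a LIM-homeobox factor, stood at 172.6, 157.7 and 163.4 in Wip1-/-, 375.8, 322.1 and 318.2 on the arrays labelled Wip1-/- Atm+/-, and 337.6, 325.5 and 290.1 in wild type. Both factors were dim in all genotypes. The others were Mllt3 of the super elongation complex, Zcchc13, Pwwp2b, the X-linked homeobox gene Tgif2lx1, the mediator subunits Med14 and Med25, the corepressor Tle3 and the decapping factor Dcp1a, between 57.1% and 65.6% of wild type. For Med25, 3 brighter probes differed from wild type by -0.27, -0.37 and -0.15 in Wip1-/- and by -0.38, -0.43 and 0.33 on the arrays labelled Wip1-/- Atm+/-. For Med14 and Mllt3, a further probe each stood at -0.50 and -0.72 in Wip1-/- and also low, at -0.55 and -0.54, on the arrays labelled Wip1-/- Atm+/-.

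Gsdmd, whose cleaved product forms membrane pores in pyroptosis, stood at 223.7, 211.8 and 239.9 in Wip1-/-, 531.6, 518.0 and 593.4 on the arrays labelled Wip1-/- Atm+/-, and 432.7, 596.0 and 537.5 in wild type. A second Gsdmd probe was as low in Wip1-/- (-1.19) but stood 0.47 above wild type on the arrays labelled Wip1-/- Atm+/-. Npcd stood at 323.2, 350.2 and 361.2 in Wip1-/-, 849.0, 927.7 and 753.1 on the arrays labelled Wip1-/- Atm+/-, and 914.9, 741.3 and 727.1 in wild type. Tspan6, an X-linked tetraspanin, stood at 689.0, 971.8 and 709.8 in Wip1-/-, 1891, 1908 and 2272 on the arrays labelled Wip1-/- Atm+/-, and 2022, 1357 and 2054 in wild type. These 3 genes stood at 43.4% to 43.9% of wild type. Of the 15 members with the largest differences, 3 have clone identifiers only, namely 1700016C15Rik, 4930430F08Rik and 1700120K04Rik, with log2 differences of -0.9986, -0.9704 and -0.9528. Another 4930430F08Rik probe was 0.19 above wild type.

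Spata3 and Gsg1 belong to lists of late spermatid genes. Spata3 stood at 5220, 5443 and 5664 in Wip1-/-, 8044, 6930 and 9610 on the arrays labelled Wip1-/- Atm+/-, and 10482, 8349 and 10037 in wild type. A brighter Spata3 probe, at a wild type mean of 13417, differed by -0.45 in Wip1-/- and 0.18 on the arrays labelled Wip1-/- Atm+/-. Dimmer Spata3 probes, at 4964 and 291.5, differed by -0.52 and -0.72 in Wip1-/-. On the arrays labelled Wip1-/- Atm+/- these dimmer probes stood 0.53 and 0.32 above wild type. Gsg1, a germ cell membrane protein, stood at 1207, 1181 and 1521 in Wip1-/-, 2304, 2392 and 2153 on the arrays labelled Wip1-/- Atm+/-, and 2101, 2133 and 2134 in wild type, but brighter Gsg1 probes near the top of the range differed by -0.03 and -0.33. Serine proteases gave 6 members, the testis genes Prss52 and Prss55 and Prss58 among them, with Prss23, Gzmd and Proc, between -0.83 and -0.62. Prss55, needed in mice for sperm to pass into the oviduct, stood at 61.5% of wild type. Channels, receptors and transporters gave 6, the zinc importer Slc39a4, the glutamate receptor subunit Grin2b, the anion channel subunit Lrrc8b, the ATP-gated P2rx2, the cannabinoid receptor Cnr1 and the potassium channel Kcna6, between -0.84 and -0.60. The 5 mitochondrial members were Clpb, Mrps15, Glrx2, Gatc and Timm8a2, and the detoxification and repair members were Akr7a5, Nqo2 and Mgmt, which removes alkyl groups from guanine in DNA. Mgmt stood at 65.5% of wild type. Immune genes besides Gsdmd were Sigirr, Ifngr2, Aif1 and Slamf7; brighter Aif1 probes differed by -0.20 and -0.48, and Ifngr2 gave a probe at -0.54 and another at 0.36. In all, 97 members fell into the 14 groups by role, a grouping made after the members were known, and 97 did not; 23 of the 194 carry only a clone or locus identifier.

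**Figure D4:**
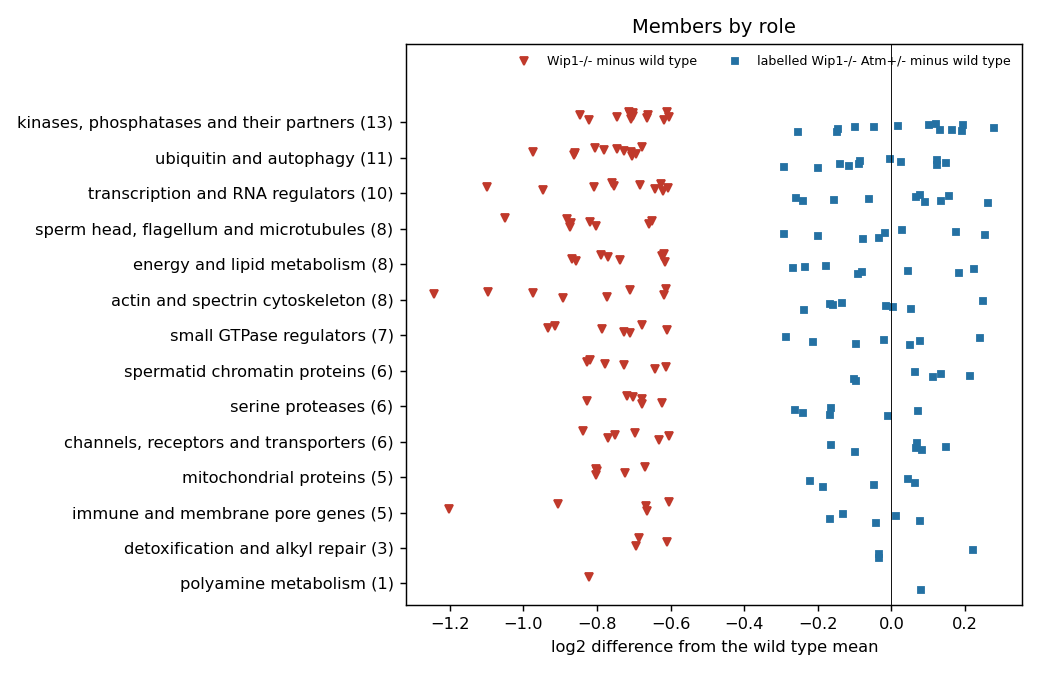
Members by role (number in brackets), with the log2 difference from the wild type mean across. Red triangles are Wip1-/- minus wild type and blue squares labelled Wip1-/- Atm+/- minus wild type; every group lies at or below -0.60 for Wip1-/- and between -0.29 and 0.28 for the arrays labelled Wip1-/- Atm+/-.

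By chromosome, 22 members were X-linked, 2 were Y-linked, 169 were autosomal and 1 was not matched. X-linked members made up 11.3% of the members, against 2.7% of the genes at the level, and 11.3% of the 194 X-linked genes at the level were members, against 2.68% over all chromosomes. Chromosome 8 held 2 members among 413 genes at the level (0.484%) and chromosome 19 held 2 among 253 (0.791%). No test is attached to these shares. Besides the X-linked genes given above, Wdr13, Yipf6, Tex13a, Ccdc160 and Tex13c1 were members, between -0.78 and -0.735, and 5 X-linked members have clone identifiers only. Several X-linked and Y-linked members belong to multi-copy families (H2al1, Cypt and Tex13 on X, Rbm31y and H2al2c on Y), whose near-identical copies may share a probe. Among the 185 members matched as protein-coding genes, only 1 pair were immediate neighbours, Synj2 and Serac1 on chromosome 17. How far apart the members lie along the genome was not tested.

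**Figure D5:**
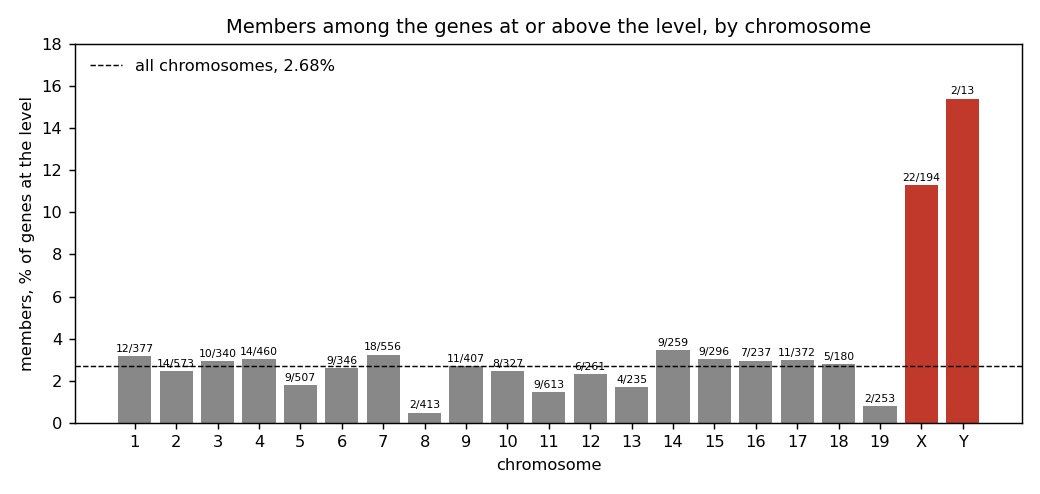
Members as a percent of the genes at or above the wild type level, by chromosome, with both numbers above each bar and the share over all chromosomes (2.68%) as a dashed line. The X chromosome stands at 11.3% (22 of 194 genes) and the Y chromosome at 15.4% (2 of 13); autosomes lie between 0.484% and 3.47%.

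Many members have more than 1 probe, and the probes did not always give the same picture. For 32 members more than 1 probe met the rule. Among 149 other probes at the level, from 97 members, the median difference between Wip1-/- and wild type was -0.48; 101 stood at -0.3 or lower, 27 between -0.3 and 0, and 21 at 0 or above. For 57 members every other probe at the level stood at -0.3 or lower, and for 19 members at least 1 stood at 0 or above, Adam15 (0.54), St3gal6 (0.37) and Slc66a2 (0.29) among them. Of members named above, Rab42, Synj2, Dcp1a and Slamf7 also had a probe at -0.27, -0.26, -0.23 and -0.07, and Gatc 1 at 0.12. On the arrays labelled Wip1-/- Atm+/- the same 149 probes had a median difference from wild type of 0.02, with 112 within 0.3 of wild type, 16 below it by more and 21 above it by more. Of the 101 probes at -0.3 or lower in Wip1-/-, 77 were within 0.3 of wild type on the arrays labelled Wip1-/- Atm+/-, 12 were lower and 12 higher. The lower ones included probes of Agpat2, Prss23, Proc and Inpp4a, at -0.31, -0.48, -0.33 and -0.38 on those arrays. Among the 149, probes far from wild type on the arrays labelled Wip1-/- Atm+/- included Adam15 (1.03) and Ifngr2 (1.37) above wild type and Hook1 (-0.64) below it. In 40 members a brighter probe did not meet the rule. Probes of a gene are not independent of the choice of that gene, so these are descriptions too, and which transcript each probe reads was not tested.

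A linear model of background-corrected scanner intensities (limma, 1 probe per gene, the brightest) was fitted across 10556 genes to place the set. Between Wip1-/- and wild type it called 19.8% of genes at an adjusted p under 0.05, 8.36% lower and 11.5% higher. Of the 193 members it tested, 171 were among the lower and 1 among the higher, Slc66a2 at a brighter probe than the member's own. Against wild type the arrays labelled Wip1-/- Atm+/- differed in 29.4% of genes (13.9% lower, 15.5% higher) and in 12 members. Against Wip1-/- they differed in 34.7% of genes, 18% lower and 16.7% higher, and were higher in 175 members. The rule used all 3 contrasts, so nothing is read from these counts, and 150 of the 193 were tested at the member's own probe. The contrasts also share arrays.

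Genes of related function that are no members were taken from 11 lists and tested in the same fit. Of 20 histone-to-protamine exchange genes tested, 6 were lower and 1 was higher in Wip1-/- than in wild type, with a list median of -0.07 against 0.04 over all genes tested. H2ap, another short H2A-related protein, had log2 levels of 12.84, 12.74 and 12.63 in Wip1-/- and 13.11, 13.53 and 13.51 in wild type, and fell by 0.65 (SE 0.14, limma adjusted p = 0.00963). On the arrays labelled Wip1-/- Atm+/- H2ap stood at 13.88, 13.79 and 13.58. Tnp2, a transition protein, fell by 0.49 in Wip1-/- (SE 0.11, limma adjusted p = 0.00856), with 11.88, 12.02 and 11.99 in Wip1-/- and 12.48, 12.49 and 12.40 in wild type, and stood at 12.34, 12.43 and 12.54 on the arrays labelled Wip1-/- Atm+/-. Hils1, an H1-like protein of elongating spermatids, was lower by a log2 difference of -0.47 (limma adjusted p = 0.00738, SE 0.10) and stood at 14.31, 14.25 and 14.27 on the arrays labelled Wip1-/- Atm+/-, just above the 14.23, 14.16 and 14.23 of Wip1-/- and below the 14.62 to 14.74 of wild type. H2ap and Tnp2 were higher on the arrays labelled Wip1-/- Atm+/- than in Wip1-/- (limma adjusted p = 0.0002 and 0.005).

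Of 21 spermatid kinases and phosphatases, 6 were lower and 0 were higher in Wip1-/- than in wild type by limma (median 0.01), and 6 and 3 at an unadjusted p under 0.05. Camk4, a calmodulin-dependent kinase that also stands in the list of histone-to-protamine exchange, fell by 0.63 (SE 0.11, limma adjusted p = 0.00277), and Csnk1g2, a casein kinase, by 0.55 (SE 0.12, limma adjusted p = 0.0107). Both were higher on the arrays labelled Wip1-/- Atm+/- than in Wip1-/-. Dusp21, a testis phosphatase, fell by 0.98 (SE 0.19, limma adjusted p = 0.00523) and stood at 7.48, 7.92 and 7.49 on the arrays labelled Wip1-/- Atm+/-, within the Wip1-/- range of 7.29 to 7.89 or just above it. The list of sex-chromosome genes of spermatids left 17 tested, 16 on X or Y and 1, H2bl1, on chromosome 13, so its name does not hold for every gene. H2bl1, named after its values were seen, differed by -0.43 in Wip1-/- against wild type, a call lost without Wip1-/- replicate 1, Wip1-/- replicate 3 or wild type replicate 2. Of the 17, 4 (H2bl1 among them) were lower and 1 was higher in Wip1-/- than in wild type (median -0.33), and 7 were higher and 3 lower on the arrays labelled Wip1-/- Atm+/- than in Wip1-/- (median 0.42, against -0.02 over all genes). Actrt1, an X-linked actin-related protein of the sperm head, fell by 0.56 (SE 0.13, limma adjusted p = 0.0138), a call that was lost without Wip1-/- replicate 3.

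In Wip1-/- against wild type, 3 of 23 elongating spermatid and flagellum genes were lower and 2 higher, 1 of 23 acrosome and round spermatid genes lower and 3 higher, and 4 of 26 ubiquitin and autophagy genes lower and 1 higher. Spermatid mRNA storage gave 1 lower and 4 higher of 26, CREM programme factors 2 and 2 of 14, and ribosome biogenesis 3 and 1 of 29. DNA damage signalling with p53 targets gave 0 lower and 3 higher of 20, and DNA methylation with heterochromatin 0 and 3 of 15 by limma; at an unadjusted p under 0.05 each gave 1 lower and 5 higher. Rnf133, a testis ubiquitin ligase, fell by 0.61 (SE 0.13, limma adjusted p = 0.00771). Over the gene lists and the cell type markers below, 23 of the 317 genes tested that are no members were called both lower in Wip1-/- than in wild type and higher on the arrays labelled Wip1-/- Atm+/- than in Wip1-/-, or 7.26%. The same held for 3.7% of all 10363 tested genes that are no members, and for 5.23% of the 10556 with members included. The lists were chosen with earlier results known, and nothing particular to them is read from this.

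Markers of other cells moved between the genotypes. The summed intensity of 26 peritubular, vascular and stromal markers was 23202 to 24258 in Wip1-/-, 43285 to 44844 on the arrays labelled Wip1-/- Atm+/-, and 17616 to 19183 in wild type, with Cnn1 and Kdr detected on 0 arrays. Of the 20 tested, 15 were higher and 1 was lower in Wip1-/- than in wild type. On the arrays labelled Wip1-/- Atm+/- 13 were higher and 4 lower than in Wip1-/-. Igfbp7 and Pdgfra, stromal genes, were 1.54 and 1.49 higher in Wip1-/- than in wild type on the log2 scale (limma adjusted p = 6.26e-05 and 6e-05), and stood higher still on the arrays labelled Wip1-/- Atm+/-. Vessel lining genes in the list did not all behave alike. Eng was detected on 3 arrays of Wip1-/-, 3 labelled Wip1-/- Atm+/- and 0 of wild type, and Vwf on 3 of each. Cdh5 and Tek were detected on 3 arrays of Wip1-/-, 1 labelled Wip1-/- Atm+/- and 0 of wild type. Cldn5 and Esam were high in Wip1-/- and near wild type on the arrays labelled Wip1-/- Atm+/-. Cldn5, a tight junction protein of endothelium, had log2 levels of 7.59, 7.36 and 7.49 in Wip1-/-, 5.90, 5.62 and 5.25 on the arrays labelled Wip1-/- Atm+/-, and 5.38, 5.12 and 5.52 in wild type. It was higher by 2.14 in Wip1-/- than in wild type (SE 0.17, limma adjusted p = 6e-05), and lower by a difference of -1.89 on the arrays labelled Wip1-/- Atm+/- than in Wip1-/- (limma adjusted p = 1.11e-05). Esam, an endothelial adhesion molecule, was detected on 3 arrays of Wip1-/- and 0 of the 6 others, at 6.83, 6.86 and 6.70 in Wip1-/- (limma adjusted p = 6.81e-05 against wild type). Cldn5 and Esam thus differed between Wip1-/- and the 6 other arrays, as the members did by the rule, but in the other direction.

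Sums of spermatocyte markers were 83923 to 88700 in Wip1-/-, 66161 to 73074 on the arrays labelled Wip1-/- Atm+/-, and 73646 to 81864 in wild type. Of these markers, 6, Sycp3 and Dmc1 included, were detected on 0 arrays, while others, such as Sycp2, Spo11 and Stag3, were detected on every array. Of 19 tested, 2 were lower and 2 higher in Wip1-/- than in wild type. The 2 lower ones, the synaptonemal complex genes Syce2 and Sycp1, fell by 0.86 and 0.76 in Wip1-/- (limma adjusted p = 0.0223 and 0.0312), and both calls were lost without Wip1-/- replicate 1, Wip1-/- replicate 3 or wild type replicate 3, that of Syce2 also without wild type replicate 1, and that of Sycp1 also with median scaling or no filter on dim probes. Both were higher on the arrays labelled Wip1-/- Atm+/- than in Wip1-/-. The 2 higher ones were the meiotic genes Meiob, by 0.60 (limma adjusted p = 0.0107), and Spdya, by 0.47 (limma adjusted p = 0.0162), a call lost without Wip1-/- replicate 1, Wip1-/- replicate 3 or wild type replicate 1. Meiob stood at log2 levels of 7.93, 7.82 and 7.84 in Wip1-/-, 6.37, 6.09 and 6.05 on the arrays labelled Wip1-/- Atm+/-, and 7.21, 7.10 and 7.49 in wild type. It was lower on the arrays labelled Wip1-/- Atm+/- than in Wip1-/- (-1.69, limma adjusted p = 5.27e-06), the reverse of Syce2 and Sycp1. Spermatogonium markers summed to 7391 to 7804 in Wip1-/-, 4140 to 4313 on the arrays labelled Wip1-/- Atm+/-, and 6072 to 6627 in wild type, with 0 of 14 tested lower and 3 higher in Wip1-/- by limma (0 and 4 at an unadjusted p under 0.05). Sertoli markers summed to 6778 to 6986 in Wip1-/-, 8478 to 9335 on the arrays labelled Wip1-/- Atm+/-, and 6576 to 7160 in wild type, with 2 of 15 tested lower and 2 higher in Wip1-/-. Leydig markers, 1 of 6 tested lower and 1 higher in Wip1-/-, summed to 3817 to 3952 in Wip1-/-, 3472 to 3780 on the arrays labelled Wip1-/- Atm+/-, and 3898 to 4057 in wild type. Of the 17 Leydig markers measured, 9 were detected on 0 arrays. The limma calls did not all go the way of this sum. Against wild type, Cyp51 was lower on the arrays labelled Wip1-/- Atm+/- (-0.72), whereas Aldh1a1 (2.26) and Fabp3 (1.39) were higher. Erythroid markers, 0 of 5 lower and 2 higher in Wip1-/- (0 and 3 at an unadjusted p under 0.05), summed to 1458 to 1531 in Wip1-/-, 3311 to 3668 on the arrays labelled Wip1-/- Atm+/-, and 1143 to 1276 in wild type. The arrays labelled Wip1-/- Atm+/- also differed from wild type by limma. There 11 of 14 spermatogonium markers were lower and 1 higher (median -0.88). Of 15 Sertoli markers 1 was lower and 7 higher (median 0.51), and of 5 erythroid markers 0 were lower and 4 higher (median 2.73).

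Macrophage and immune markers summed to 4737 to 5021 in Wip1-/-, 4497 to 5037 on the arrays labelled Wip1-/- Atm+/-, and 4495 to 4741 in wild type, with 2 of 17 tested lower and 6 higher in Wip1-/-. The 2 lower ones were Mpo and C1qb, myeloid and macrophage genes, which fell by 1.46 and 1.23 (limma adjusted p = 6e-05 and 0.000293). C1qb had log2 levels of 7.25, 7.16 and 7.35 in Wip1-/-, 9.10, 9.02 and 8.81 on the arrays labelled Wip1-/- Atm+/-, and 8.69, 8.52 and 8.24 in wild type. Its values in Wip1-/- lay below those of the 6 other arrays, as for the members. Among the 6 higher ones, Ly6c1 and Lyz2, genes of myeloid cells (Ly6c1 also of endothelium), ran the other way. Ly6c1 was detected on 3 arrays of Wip1-/-, 1 labelled Wip1-/- Atm+/- and 0 of wild type, with log2 levels of 7.15, 7.19 and 7.11 in Wip1-/- (limma adjusted p = 6e-05 against wild type). Lyz2 was 0.94 higher in Wip1-/- than in wild type (limma adjusted p = 0.00126) and lower on the arrays labelled Wip1-/- Atm+/- than in Wip1-/- (-1.40, limma adjusted p = 2.38e-05). Markers of this list thus differed in both directions. Undetected on all arrays were genes such as Amh, Star and Ptprc. From the same lists, Sox9 and Inha (Sertoli), Insl3 (Leydig), and Cd74 and C1qc (immune) were detected on every array. The part of these cells in the members' levels was not tested, and in RNA from bulk cells fewer cells of a type and less RNA per cell cannot be told apart.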

How the data were processed

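The deposited scanner table holds, per the file headers, unnormalized signal intensity with a detection p-value per probe and array; 895 p-value cells had lost their decimal point and were read as thousandths. The authors' deposited processed table holds intensity values on a linear scale which, judged from the values, were quantile normalized with background left in; no label or header names the software. It lists 45279 probes, of which 34885 have 1 symbol in the platform annotation, 18 several and 10376 none, and 34803 matched GRCm38.p6 by Entrez identifier; 0 columns of sample values were left unused. Median scanner intensity was 100.5 to 121.8 and 37.9% to 42.0% of probes were detected per array, and the few arrays per genotype limit the precision. Complete scanner values exist for 43582 probes.

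Members came from the authors' values by the rule given in the report. Scanner values went through neqc of limma 3.58.1 (R 4.3.3, offset 16). Probes detected at p under 0.05 on at least 3 arrays were kept, the brightest per gene was tested (10556 genes) with lmFit and eBayes on all 9 arrays, two-sided, with Benjamini-Hochberg adjustment at 0.05. The code was run on simulated data. Named genes are members with a gene name, the 15 largest differences and list members with values on every array, the 3 nearest to each limit, Ppm1d and Atm, and called list genes (up to 4 per list and contrast). The members, lists, motifs and rules were chosen with earlier results of these data known. Alternatives were other normalizations, filters, limits of the rule, the replicate number as a block and leaving out each array.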

Additional observations from a re-analysis of the deposited data

How the results depend on the processing

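The members' median in Wip1-/- against wild type was -0.72 on the log2 scale, and -0.90 with neqc, which removes background, -0.71 with median scaling and -0.75 with cyclic loess. The arrays labelled Wip1-/- Atm+/- had a median of 0.01 against wild type, and -0.17 with median scaling, which moved the median of all genes at the level to -0.20 (-0.05 on the authors' values). All 191 members with scanner values stayed below wild type in Wip1-/- under every scaling run, and 174 to 191 kept the 3 Wip1-/- arrays below the 6 others. The members were chosen on these same arrays, so these counts and the members' medians in this section are largely fixed by the rule. The rule gave 194 genes, 292 with a limit of -0.5 and 56 with -0.8. It gave 194, 215, 182 and 196 genes on scanner values with quantile normalization, neqc, median scaling and cyclic loess, of which 175, 155, 112 and 164 are members. Leaving out 1 array at a time gave 183 to 228 genes, a median of -0.73 to -0.71 for Wip1-/- and of -0.01 to 0.03 for the arrays labelled Wip1-/- Atm+/-. Of the genes tested, 2091 were called between Wip1-/- and wild type, and 1209 to 2052 with 1 array left out, the lowest without Wip1-/- replicate 1 (1209) and replicate 3 (1274). For list genes the count was 84, and 50 to 86 with 1 array left out (53 without Wip1-/- replicate 1, 50 without replicate 3). In these leave-out fits fewer arrays enter. The other contrasts gave 3103 and 3667 calls, and 2494 to 2940 and 2890 to 3780 with 1 array left out; for list genes 106 and 144, and 87 to 107 and 116 to 151. Replicate numbers are shared by the genotypes, and deviations of same-numbered arrays correlated at -0.298 to 0.272. These values show no strong effect shared by a number, but do not settle whether the numbers pair the arrays. The main fit did not pair them. With the replicate block 1842, 2896 and 3493 genes and 73, 101 and 139 list genes were called in the 3 contrasts. The members' median in Wip1-/- stayed negative under the alternatives run, which their choice on these same arrays all but fixes. Their median on the arrays labelled Wip1-/- Atm+/-, near 0, took either sign (0.01, -0.17, -0.01). For single genes, 192 gene and setting pairs lost a call and 241 moved. A slide block was not run, because the headers give no slide.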
